A study of Mus musculus with 28 samples.

Results

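The genes of the urea cycle and of liver ammonia handling were followed in livers of mice that express human APOBEC3B. The group described holds 8 members of 35928 gene symbols in one set of libraries and of 24849 gene rows in the other, and it was chosen by function: Cps1, Otc, Ass1 and Asl, which encode enzymes of the cycle, Nags, which makes its activator, Slc25a15, the mitochondrial ornithine carrier, and Gls2 and Glul, which release and fix ammonia through glutamine. APOBEC3B (A3B) is a cytidine deaminase, and in these mice a fusion of A3B with turboGFP sits in the Col1A1 locus behind a tetracycline operator. A3B mice also carried the CAGs-rtTA3 driver, which is active in most adult tissues. Of the 28 samples of the series, 14 are livers, 9 from A3B mice and 5 from controls, and each came from a mouse with its own number. In set 2, livers of A3B mice 44, 48, 49, 125, 137 and 153 (A3B + CAGS-rtTA by their labels) were compared with livers of controls 45 and 168 (A3B alone), all labelled with 10 days of food at 625 ppm doxycycline. In set 1, livers of A3B mice 23 and 28 (14 days) and 70 (10 days) were compared with livers of controls 91 and 92 (A3B alone) and 11, which its label gives as A3B + CAGS-rtTA. The labels give 15 days for the set 1 controls, whereas the study's list of mice gives them no doxycycline. For the set 2 controls that list has the 10 days of the labels, and the study's methods say that control littermates received doxycycline. A figure legend of the study, however, describes a pair of control animals as not given doxycycline. A difference in doxycycline between the groups therefore cannot be told apart from A3B in either set. Mice started as young adults, and by the same list A3B mice were taken at a humane end point and controls were killed as planned. The state of the animal at the end of life therefore cannot be told apart from the expression of A3B in any comparison below.

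In the liver, ammonia from amino acid breakdown is removed by a pair of systems that sit in different hepatocytes. Hepatocytes around the portal vein run the urea cycle: carbamoyl phosphate synthetase (Cps1), switched on by the N-acetylglutamate that Nags makes, and ornithine transcarbamylase (Otc) work in mitochondria, while argininosuccinate synthetase (Ass1) and argininosuccinate lyase (Asl) work in the cytosol. Ornithine returns to the mitochondria through Slc25a15. Liver glutaminase (Gls2) frees ammonia beside Cps1. A thin ring of hepatocytes around the central vein holds glutamine synthetase (Glul), which captures the ammonia that has escaped the cycle.

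In the GRCm38 annotation of GENCODE M21, each of the 8 members is a protein-coding gene. Cps1 lies at chr1:67123026-67231259 and Glul at chr1:153899944-153909723, Ass1 at chr2:31470207-31520672, Asl at chr5:130011258-130029247 and Slc25a15 at chr8:22375551-22398597. Gls2 lies at chr10:128194457-128210004, Nags at chr11:102145513-102149477 and Otc at chrX:10252305-10321024. Asl and Slc25a15 are on the minus strand and the other members on the plus strand. The annotation gives Cps1 a single transcript and Gls2 11 transcripts.

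Set 2 libraries held between 65161064 and 118976013 estimated counts per liver, and set 1 is given as TPM (a level relative to transcript length and to the whole library) with unknown depth. In set 1, where a row for the human transgene exists, hAPOBEC3B was between 0.0928 and 0.144 TPM in the 3 control livers and 1705, 705 and 1585 TPM in A3B livers 23, 28 and 70. All livers expressed hepatocyte markers, but albumin (Alb) was between 19353 and 44124 TPM in set 2 A3B livers and between 54669 and 107806 TPM in the controls, and the sum of 9 hepatocyte markers was between 41443 and 101121 TPM against 111972 and 163260 TPM. In set 1 that sum was between 9899 and 10467 TPM in A3B livers and between 11659 and 13415 TPM in controls. In these bulk samples fewer cells of a type and less RNA per cell cannot be told apart, and the part of either in the members' values was not tested. Liver 48 stood apart in its transcripts, with 4.98% of its TPM on retained-intron transcripts against 2.66% to 3.28% in the other A3B livers and 2.04% and 2.27% in the controls. Livers 49 and 28 were low for most members. For the members called, and for Asl and Slc25a15, the fits over both sets are given without these 3 libraries as well, and the set 1 fits without liver 28 where that moved a value.

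When both liver sets were fitted together, Glul and Otc were lower with A3B, Glul by 1.36 on the log2 scale and Otc by 1.36. The call of Otc was lost when control 45, 11, 91 or 92 was left out (adjusted p between 0.0503 and 0.0656 by limma). Cps1, Nags and Gls2 showed no consistent direction across livers, and Asl and Slc25a15 lay above controls in most but not all A3B livers. With all livers of a set, no member passed an adjusted p of 0.05 by edgeR in set 2 or by limma in set 1, and the other settings that called Glul and Otc within a set are given with their values below.

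**Figure D1:**
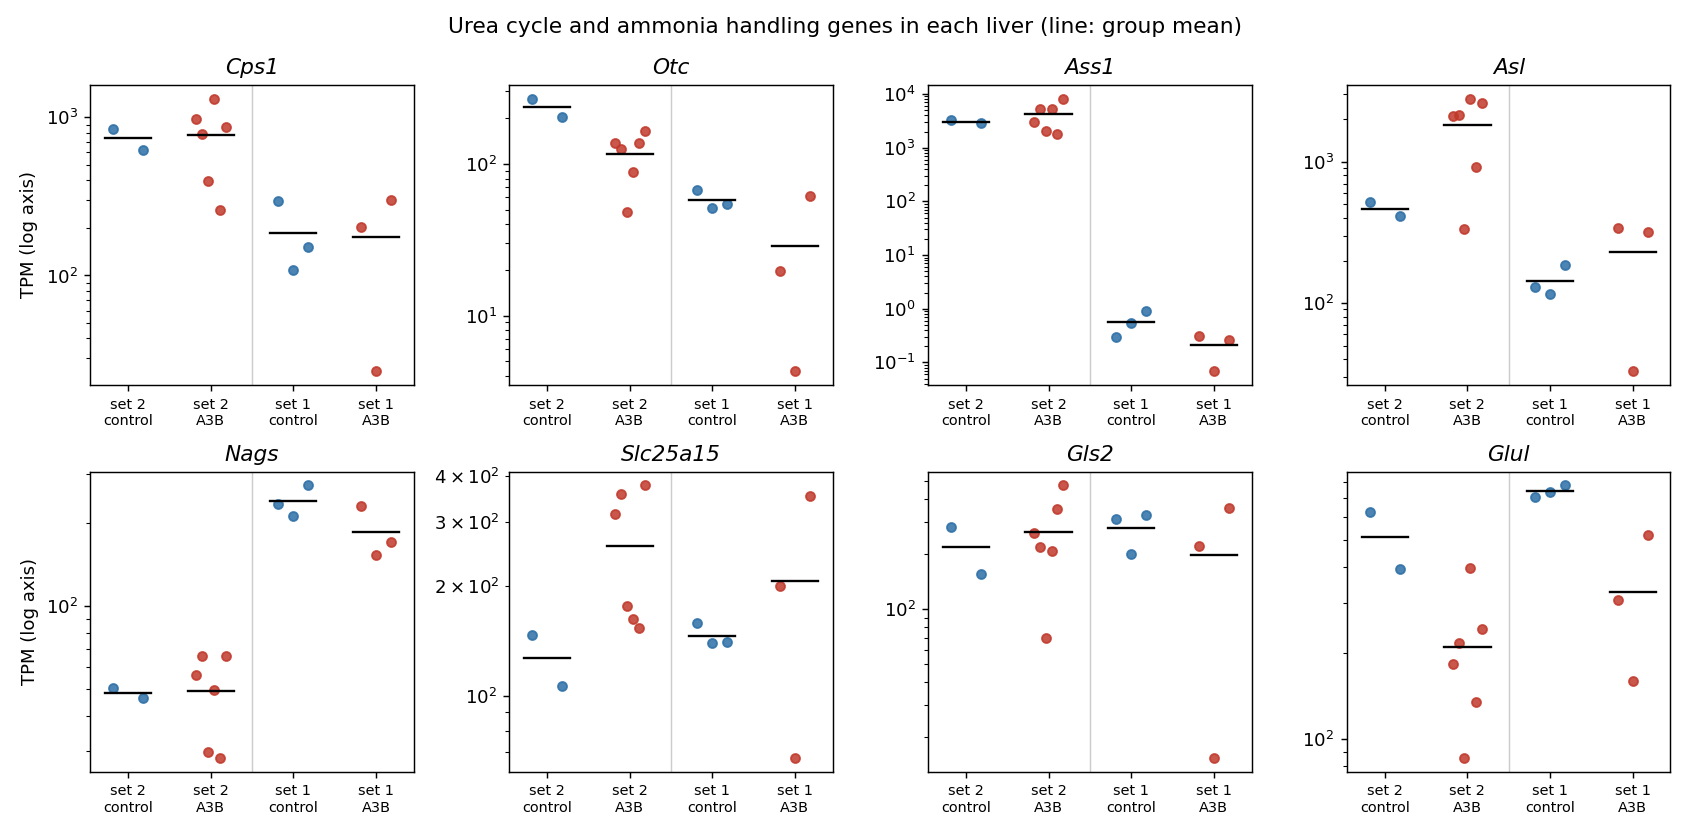
TPM of the 8 members (log axis, 1 panel per gene, each with its own scale) in every liver. Points are livers, blue for controls and red for A3B, and black lines are group means. Otc lies below both controls in all 6 A3B livers of set 2, Slc25a15 lies above them, and Glul lies below all controls in set 1.

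Glul, the glutamine synthetase gene of the perivenous hepatocytes, was 627 TPM in control liver 45 and 393 TPM in control liver 168. In set 2 A3B livers it was 183 TPM in mouse 44, 216 in mouse 137, 85.5 in mouse 49, 396 in mouse 125, 135 in mouse 48 and 243 in mouse 153. Of these 6 livers, 5 were below both controls on TPM and liver 125 overlapped the lower control. On TMM-scaled log2 CPM, a scale of counts closer to that of the edgeR test, all 6 were below both controls. Liver 125 was at 9.46 there, against 10.27 and 10.02 in controls 45 and 168. Set 1 gave 705, 737 and 777 TPM in controls 11, 91 and 92 and 307, 160 and 519 TPM in A3B livers 23, 28 and 70, so that the groups did not overlap. Over all genes tested in set 1, every A3B liver lay below every control for 10.3% and above for 28.5%. The mean was 510 ± 165 TPM (SD, n = 2) in controls and 210 ± 107 TPM (n = 6) in A3B livers of set 2, and 740 ± 35.7 TPM (n = 3) against 329 ± 181 TPM (n = 3) in set 1.

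In set 2 the log2 fold change of Glul was -1.62 (SE 0.49) with an adjusted p of 0.0952 by edgeR's quasi-likelihood test over 17376 genes, of which 3.66% were called, and 0 of the 8 members were among them, with 2, Glul and Otc, at an unadjusted p under 0.05. In set 1 it was -1.32 (SE 0.44) with an adjusted p of 0.0923 (-0.89 without liver 28, and -1.73 with an adjusted p of 0.0379 without liver 70) by limma over 11507 genes, of which 7.93% were called, and 0 of the 7 members tested were among them, with 1, Glul, at an unadjusted p under 0.05. Over both sets, Glul was below every control of the same set in 8 of 9 A3B livers on TPM. In a limma fit of both sets with the set as a term, it was lower by 1.36 (SE 0.35, adjusted p = 0.00711). In that fit 8.42% of 10150 genes were called lower and 30.6% higher, so a call in this fit, above all a call of a rise, is a common outcome. Over all genes the log2 fold change had a median of 0.38 in it, 0.21 in set 2 and 0.39 in set 1, and the members' values should be read against those shifts. The shift depended on the scaling. Over both sets the median was 0.19 with TMM-scaled counts for set 2 and 0.05 with quantile normalization within each set. The shares of genes called higher and lower, given here and below, are those of the TPM scale. Glul was called lower in each alternative setting of the fit over both sets, including that without livers 28, 48 and 49 (log2 fold change -0.94, adjusted p = 0.00513 by limma, in a fit that called 10.2% of genes lower).

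Otc, which joins carbamoyl phosphate to ornithine, was 269 and 204 TPM in control livers 45 and 168. Its levels in the set 2 A3B livers were 137 TPM (mouse 44), 126 (137), 47.9 (49), 88.8 (125), 136 (48) and 164 (153). Every A3B liver of set 2 was below both controls, which held for 5.42% of the genes tested. In set 1 Otc was 67.0, 51.1 and 54.7 TPM in controls 11, 91 and 92 and 19.6, 4.28 and 61.7 TPM in A3B livers 23, 28 and 70. Livers 23 and 28 were below all controls, and liver 70 lay within their range.

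The log2 fold change of Otc was -1.35 (SE 0.43) in set 2 with an adjusted p of 0.108 by edgeR, and -1.62 (SE 0.80) in set 1 with an adjusted p of 0.202 by limma. The set 1 value was -0.69 (adjusted p = 0.356) without liver 28 and -2.48 (adjusted p = 0.047, called) without liver 70. Over both sets it was lower by 1.36 (SE 0.46) with an adjusted p of 0.0282 by limma. That call was lost without control 45, 11, 91 or 92 (adjusted p between 0.0503 and 0.0656) and with no filter on low values (0.0523), although the log2 fold change stayed between -1.37 and -1.28 there. It was also lost with the sets pooled with no set term (-0.74, adjusted p = 0.551). Without livers 28, 48 and 49 it was lower by 0.80 with an adjusted p of 0.0255. DESeq2, run on set 2 as an alternative, called both Glul (-1.69, adjusted p = 0.0257) and Otc (-1.42, adjusted p = 0.0389) in a fit that called 13% of genes. Without livers 48 and 49 edgeR called both (adjusted p of 0.0409 and 0.0158) and 18.4% of all genes. Without liver 49 alone edgeR called Glul (-1.52, adjusted p = 0.0443), Otc (-1.25, adjusted p = 0.0369) and 9.34% of all genes.

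Glul and Otc, the members called lower, are both among the 5 members with a promoter in the RefSeq table for GRCm38.p6 (Glul, Otc, Ass1, Nags and Slc25a15). The windows run from 250 bases before to 50 bases after the annotated start, both on the plus strand, at chr1:153899679-153899978 for Glul and chrX:10252055-10252354 for Otc, and they are shown because they differ in base makeup. Capitals mark CCAAT and GGGCGG, searched on both strands.
Glul: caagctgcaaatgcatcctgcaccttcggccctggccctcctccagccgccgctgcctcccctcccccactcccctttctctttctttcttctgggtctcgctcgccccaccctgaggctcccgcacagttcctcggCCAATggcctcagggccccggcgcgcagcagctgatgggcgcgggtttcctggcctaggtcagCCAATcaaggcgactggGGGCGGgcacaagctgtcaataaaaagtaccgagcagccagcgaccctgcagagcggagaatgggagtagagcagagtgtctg
Otc: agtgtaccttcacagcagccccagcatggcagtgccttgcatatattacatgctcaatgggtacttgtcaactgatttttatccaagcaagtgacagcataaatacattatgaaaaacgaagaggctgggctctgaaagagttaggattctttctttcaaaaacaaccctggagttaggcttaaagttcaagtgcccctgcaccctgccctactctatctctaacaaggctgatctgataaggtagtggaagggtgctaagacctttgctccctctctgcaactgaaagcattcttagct

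The Glul window holds CCAAT at positions -113 and -50 and GGGCGG at -33 from its start site, whereas the Otc window holds neither. CCAAT is found in 37.4% of the 32851 promoters of the table and GGGCGG in 35.7%. GGGCGG was also found in the windows of Ass1, Nags and Slc25a15. The letters TTGCNNAA, found in 10.8% of promoters, and CTTTGAT, found in 3.73%, are in neither the Glul nor the Otc window, which says only that these letters are not there.

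Slc25a15, the carrier that brings ornithine back into mitochondria, was 147 and 106 TPM in control livers 45 and 168. It was 315 TPM in A3B liver 44, 358 in 137, 176 in 49, 163 in 125, 153 in 48 and 377 in 153. Every A3B liver of set 2 was above both controls on TPM, as for 24.3% of all genes tested. On TMM-scaled log2 CPM, the scale closer to that of the edgeR test, livers 49 (8.64) and 125 (8.68) lay below control 45 (8.70). Its set 1 levels were 158, 139 and 140 TPM in controls 11, 91 and 92 and 199, 67.3 and 353 TPM in livers 23, 28 and 70, so that liver 28 was below and the others above. The log2 fold change was 0.65 (SE 0.45, adjusted p = 0.413, edgeR) in set 2, 0.21 (SE 0.57, adjusted p = 0.816, limma) in set 1 and 0.57 (SE 0.37, adjusted p = 0.229, limma) over both sets. The set 1 value was 0.87 without liver 28 and -0.32 without liver 70.

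Asl, which releases arginine and fumarate from argininosuccinate, was 515 and 412 TPM in control livers 45 and 168. It reached 2102 TPM in A3B liver 44, 2143 in 137, 2803 in 125 and 2623 in 153, but was 917 TPM in liver 48 and 334 TPM in liver 49. Thus 5 of 6 A3B livers exceeded both controls and liver 49 fell below them. In set 1 Asl was 129, 115 and 187 TPM in controls 11, 91 and 92, 340 and 317 TPM in livers 23 and 70, and 32.8 TPM in liver 28. The log2 fold change was the most positive of the members in set 2, 1.38, but also had the largest error (SE 0.74), with an adjusted p of 0.296 by edgeR. In set 1 it was 0.12 (SE 0.86, adjusted p = 0.93, limma), and it was 1.22 without liver 28 and -0.40 without liver 70. Over both sets it was 0.90 (SE 0.62, adjusted p = 0.262, limma).

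The values of Asl and Slc25a15 turned on few libraries. Without A3B liver 28, the limma fit over both sets called Asl higher (1.47, adjusted p = 0.0232) and Slc25a15 higher (0.90, adjusted p = 0.0254), beside 27.3% of all genes. Liver 28 is the lowest A3B liver of set 1 for both genes, so leaving it out favours a rise. Livers 48 and 49 are likewise the lowest of set 2 for Asl, and without all 3 livers the log2 fold change of Asl was 1.83 and that of Slc25a15 1.04, given as descriptions from which no call is read. The same holds for edgeR in set 2 without livers 48 and 49, which gave Asl 1.72 (adjusted p = 0.0144). With limma arrayWeights, which keeps every library but gives some less weight, both genes were called higher over both sets, Asl by 1.63 (adjusted p = 0.00204) and Slc25a15 by 0.94 (adjusted p = 0.00385), in a fit that called 57.7% of all genes in either direction.

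**Figure D2:**
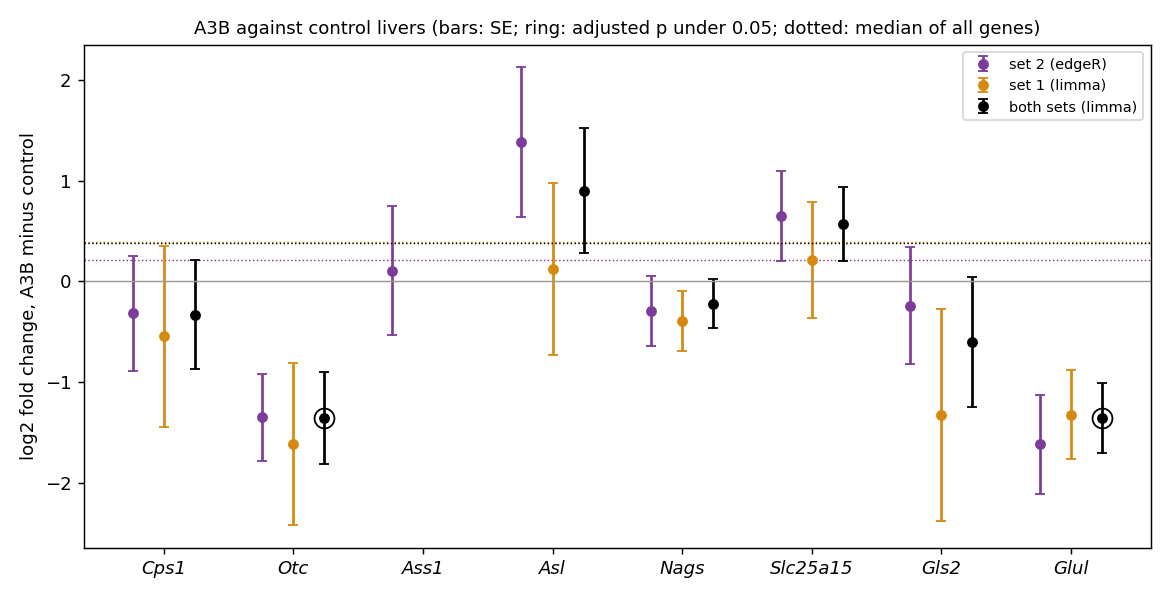
Log2 fold change of A3B minus control livers for each member in set 2 (edgeR), set 1 (limma) and both sets (limma), with bars of 1 SE. Rings mark an adjusted p under 0.05, reached by Otc and Glul over both sets, and dotted lines mark the median of all genes. Ass1 was tested in set 2 only.

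Cps1, the entry enzyme of the cycle, was 846 and 625 TPM in control livers 45 and 168, and 972, 788, 397, 1313, 259 and 873 TPM in A3B livers 44, 137, 49, 125, 48 and 153. Of the 6 A3B livers, 3 were above and 2 below both controls on TPM. On TMM-scaled log2 CPM, livers 44 (11.52), 137 (11.66), 49 (10.52), 48 (10.32) and 153 (11.72) lay below both controls (11.95 and 11.75). Only liver 125 (12.42) lay above them. Its set 1 levels were 294, 109 and 151 TPM in controls 11, 91 and 92 and 202, 24.7 and 301 TPM in livers 23, 28 and 70, with liver 28 the only one below. The log2 fold change was -0.32 (SE 0.57) in set 2 and -0.54 (SE 0.90) in set 1, where it was 0.54 without liver 28.

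Nags, whose product activates Cps1, was 50.4 and 46.3 TPM in control livers 45 and 168. In A3B livers it was 56.4 (44), 66.1 (137), 29.5 (49), 49.7 (125), 28.2 (48) and 66.2 (153) TPM, with 3 above and 2 below both controls. Set 1 showed 235, 212 and 273 TPM in controls 11, 91 and 92 and 230, 153 and 171 TPM in livers 23, 28 and 70. For Nags the log2 fold change was -0.29 (SE 0.35) in set 2 and -0.39 (SE 0.30) in set 1. Within set 2, livers 49 and 48 were the lowest for both genes.

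Gls2, the liver glutaminase, was 281 and 156 TPM in control livers 45 and 168 and 259, 219, 69.7, 208, 352 and 475 TPM in A3B livers 44, 137, 49, 125, 48 and 153. Set 1 showed 311, 201 and 325 TPM in controls 11, 91 and 92 and 221, 15.4 and 356 TPM in livers 23, 28 and 70. The groups overlapped in both sets, and the low value of liver 28 set much of the fold change in set 1 (-1.33, SE 1.05), which was 0.04 without that liver. In set 2 the log2 fold change was -0.24 (SE 0.58).

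Ass1, the step between citrulline and argininosuccinate, had the highest level of the 8 members in set 2. It was 3255 and 2846 TPM in control livers 45 and 168 and 3005, 5255, 2049, 5205, 1802 and 8232 TPM in A3B livers 44, 137, 49, 125, 48 and 153, with 3 above and 2 below both controls. On TMM-scaled log2 CPM, liver 44 (11.31) was below both controls (12.04 and 12.11) as well. With edgeR the log2 fold change was 0.11 (SE 0.64, adjusted p = 0.94 by edgeR).

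In set 1, Ass1 was listed at 0.298, 0.531 and 0.892 TPM in controls 11, 91 and 92 and between 0.068 and 0.304 TPM in A3B livers, under the mean of 1 TPM needed for a test. Ass1 has a processed pseudogene, Gm5424, and 622 of the 1597 windows of 100 bases in its main transcript of 1696 bases are found without a change in the 1240 bases of Gm5424. Set 1 was made from genome alignments and set 2 from transcripts, and the part of reads that fit both genes in the low set 1 value was not tested. Gm5424 itself was listed at 0 in every set 1 liver. The set 1 level of Ass1 is therefore not read as a level of expression, and set 1 gives no comparison for it.

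The order of the levels also differed between groups within set 2. In controls the mean TPM ran Ass1 (3051), Cps1 (735), Glul (510), Asl (464), Otc (237), Gls2 (219), Slc25a15 (127) and Nags (48.3). Of the neighbours in that order, Cps1 and Glul overlapped within their ranges, as did Glul and Asl, and Otc and Gls2. In A3B livers Asl came next after Ass1, with a mean of 1820 ± 982 TPM (n = 6), and Glul was below Slc25a15 (257 ± 104 TPM). The ranges of Asl and Cps1 overlapped there, and Asl was below Cps1 in liver 49. Those of Glul and Slc25a15 overlapped as well, with Glul the higher in liver 125. In set 1 controls, Glul was first at 740 ± 35.7 TPM (n = 3), above Gls2 (279 ± 67.9 TPM) and Nags (240 ± 31 TPM). The most abundant liver transcripts reach far lower TPM in set 1 than in set 2, with Alb between 986 and 2037 TPM, so levels were compared within a set only.

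By the level of Y-chromosome genes, control 45 and A3B livers 44, 48 and 49 of set 2 were of a sex other than control 168 and A3B livers 125, 137 and 153. Since every A3B liver was below both controls for Otc, each of the 6 was also below the control of the same sex, which adds no separate evidence. On TPM, Glul was below the control of the same sex in 5 of 6, with liver 125 at 396 TPM against 393 TPM in control 168. On TMM-scaled log2 CPM, liver 125 (9.46) was below control 168 (10.02) as well. With Y-chromosome expression as a covariate in edgeR, the log2 fold change in set 2 was -1.88 for Glul (adjusted p = 0.0542) and -1.39 for Otc (adjusted p = 0.115).

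Set 2 also separates transcripts. Cps1, Otc and Slc25a15 each had a single protein-coding transcript with between 95.5% and 100% of the gene's TPM in every set 2 liver. Asl was spread over 4 protein-coding transcripts. In control livers 45 and 168, Asl-201 held 8.78% and 15.7% of its TPM and Asl-206 between 23.5% and 24%, whereas in A3B livers other than 48 Asl-201 held between 15.3% and 21.2% and Asl-206 between 28.4% and 36.2%. In liver 48, Asl-201 held 70% and Asl-206 5.42%.

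Gls2 was divided between the coding transcript Gls2-201 and the retained-intron transcript Gls2-207. Gls2-201 held 63.6% and 57.4% of Gls2 TPM in control livers 45 and 168 and between 40.4% and 51.1% in A3B livers other than 48. In liver 48 it held 2.24%, equal to 7.89 TPM, and Gls2-207 held 86.9%, so that the high Gls2 sum of this liver was almost wholly retained-intron signal. Gls2-205, a transcript annotated for nonsense-mediated decay, was 0.362 and 0.497 TPM in controls and between 0.909 and 17.7 TPM in A3B livers. Ass1-203, another retained-intron transcript, was 245 TPM in liver 48 and between 5.4 and 21.1 TPM in the controls. Of 60653 transcripts tested with edgeR, 0.162% were called, and 0 of 35 member transcripts were among them, with 5 at an unadjusted p under 0.05. With gene sums over protein-coding transcripts only, 0 members were called in set 2, as with all transcripts. The log2 fold change of Gls2 moved to -0.86 (SE 0.78) there and that of Nags to -0.045 (SE 0.38). Nags-203, a processed transcript that this sum leaves out, held 30.9% and 32% of Nags TPM in controls 45 and 168. It held between 8.27% and 23.4% in A3B livers, and its level was not called (adjusted p = 0.167, edgeR).

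**Figure D3:**
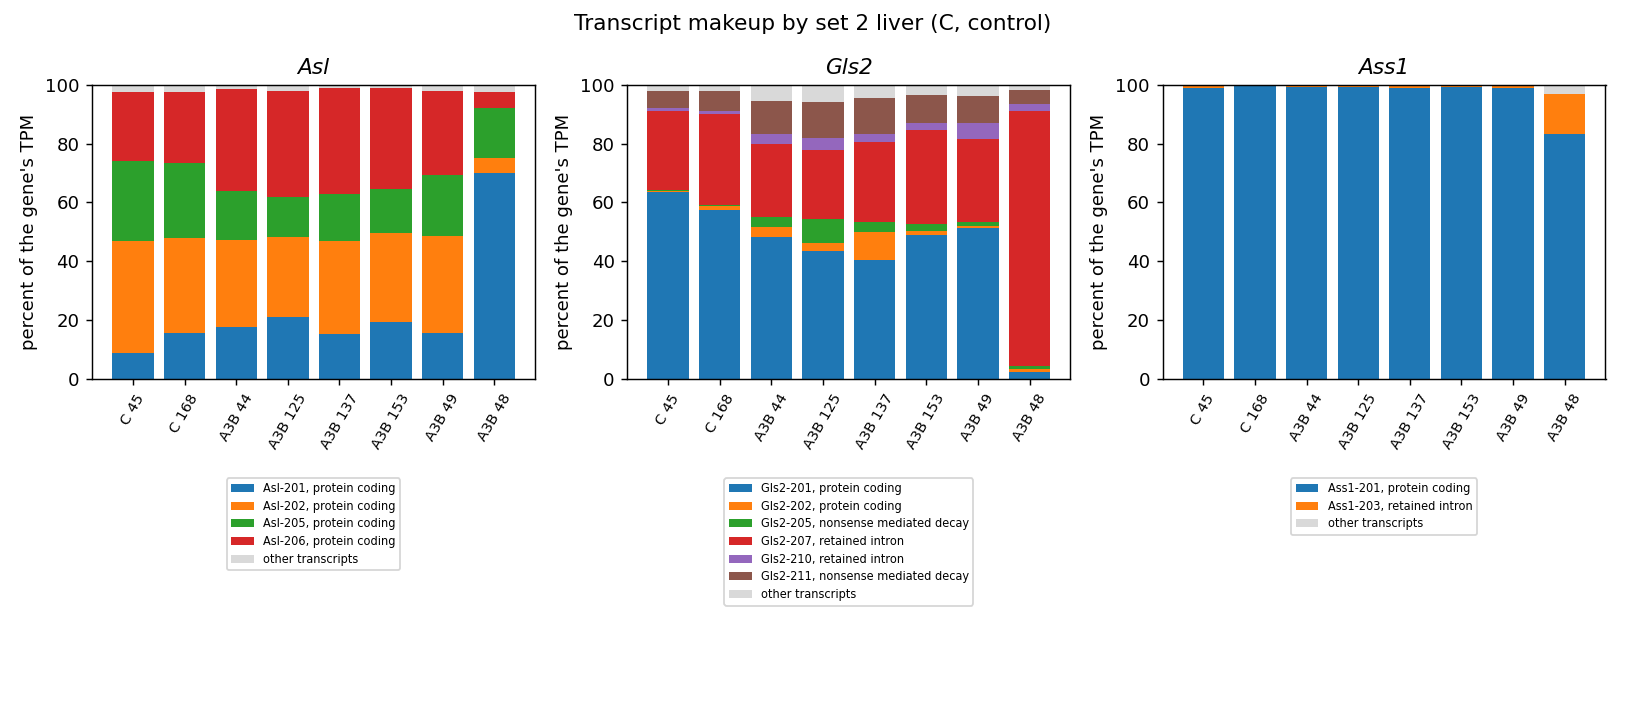
Share of each gene's TPM (percent, stacked to 100) held by its transcripts in each set 2 liver for Asl, Gls2 and Ass1. C stands for control. Liver 48 differs from the other 7 livers in each gene, with 86.9% of Gls2 on the retained-intron transcript Gls2-207.

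The A3B effect was then compared between sets. The difference of the log2 fold changes, set 1 minus set 2, passed the threshold for 0% of 10150 genes by limma, with 234 genes at an unadjusted p under 0.05, and for 0 of 7 members, none of which had an unadjusted p under 0.05. The difference was 0.07 (SE 0.72) for Glul, -0.51 (SE 0.94) for Otc and -1.55 (SE 1.22) for Asl. These errors leave room for a difference of more than 1 log2 unit in each of these members.

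Genes around the cycle were taken from lists written beside the members. Of 25 genes that supply or drain it, 24 were tested in set 2 and 2 were called, both lower, beside 3.66% of all genes called in either direction. Agmat, which acts on agmatine, was lower by 1.89 (SE 0.34, adjusted p = 0.0205, edgeR), with levels between 63.3 and 132 TPM in A3B livers and 202 and 302 TPM in controls. Aqp9, a channel of hepatocytes for glycerol and urea, was lower by 1.81 (SE 0.32, adjusted p = 0.0195, edgeR), between 74.7 and 103 TPM against 201 and 260 TPM. The median log2 fold change of the list was -0.41 in set 2.

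Over both sets, 3 of the 18 support genes tested were called higher and 5 lower by limma, beside 30.6% and 8.42% of all genes, with a list median of -0.40. Car5a, the mitochondrial carbonic anhydrase that supplies bicarbonate to Cps1, was lower by 3.07 (SE 0.79, adjusted p = 0.00753). It was 138 and 118 TPM in controls 45 and 168 and between 2.66 and 59.9 TPM in A3B livers of set 2, and 0.724 to 67.4 TPM against 78.5 to 104 TPM in set 1, with no overlap in either set. Glud1, which frees ammonia from glutamate, was lower by 0.71 (SE 0.25, adjusted p = 0.0338). Aldh4a1 was the fifth gene called lower, and Got1, Nos3 and Odc1 were called higher.

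Of 15 transporters of glutamine, ammonia and amino acids, 13 were tested in set 2 and 0 were called by edgeR, with 3 at an unadjusted p under 0.05. Over both sets, 4 of 11 were called higher and 1 lower by limma, close to the shares over all genes (30.6% and 8.42%). Slc38a3, which moves glutamine across the hepatocyte membrane, was the transporter called lower, by 1.66 (SE 0.45, adjusted p = 0.00941). It was 1596 and 803 TPM in control livers 45 and 168 and between 130 and 747 TPM in set 2 A3B livers, and between 27.6 and 154 TPM against 207 and 281 TPM in set 1, again with no overlap. Slc7a2, which takes up arginine and ornithine, was higher by 1.33 (SE 0.41, adjusted p = 0.0183). Slc1a5 (0.86) and the mitochondrial glutamate carrier Slc25a22 (0.67) were higher as well, the former at no more than 5.41 TPM in any liver, and the remaining gene called higher was Slc38a2.

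Of 18 regulators known to act on urea cycle genes, 1 was called in set 2. Ppargc1a, a coactivator of the fasting response, was higher by 2.85 (SE 0.61, adjusted p = 0.0373, edgeR), between 7.49 and 50.9 TPM in A3B livers and 1.49 and 4.24 TPM in controls. In set 1 it was between 1.09 and 14.0 TPM in A3B livers and between 0.428 and 1.02 TPM in controls. Over both sets it was higher by 2.37 (SE 0.51, adjusted p = 0.00244, limma), and 5 of 18 regulators were called higher and 2 lower, again close to the shares over all genes (30.6% and 8.42%). Cebpb was higher by 0.83 (SE 0.26, adjusted p = 0.0202), whereas Cebpa, a factor of differentiated hepatocytes, was lower by 1.27 (SE 0.42, adjusted p = 0.0263). Gcgr, the glucagon receptor, was lower by 1.12 (SE 0.35, adjusted p = 0.0195). The remaining regulators called higher were Foxo1, Sp1 and Nfyc.

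Since Glul marks perivenous hepatocytes and most members mark periportal ones, other genes of both zones were read beside them. Of 23 pericentral genes, 4 were called lower and 0 higher in set 2, where 3.66% of all genes were called in either direction, with a median of -1.11 against 0.21 for all genes. Cyp1a2, a cytochrome of perivenous hepatocytes, was lower by 5.99 (SE 0.80, adjusted p = 0.00726, edgeR), between 3.21 and 31.5 TPM against 644 and 652 TPM in controls. Rnf43 and Notum, feedback targets of Wnt signaling, were lower by 1.60 and 1.51, and Axin2, another such target, was lower by 1.78 (SE 0.34, adjusted p = 0.0267, edgeR). Over both sets, 9 of 20 pericentral genes were called lower and 3 higher by limma, beside 8.42% and 30.6% of all genes, with a median of -1.19 against 0.38 for all genes. Those called higher were Znrf3 (1.32), Tcf7l2 (0.81) and Psmd4 (0.86).

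Of 20 periportal genes, 1 was called in set 2, Fbp1 of gluconeogenesis, which was lower by 1.77 (SE 0.42, adjusted p = 0.0487, edgeR). The periportal median was 0.32 in set 2. Over both sets, 4 of 19 were called lower and 3 higher, beside 8.42% and 30.6% of all genes. The median there was 0.32 against 0.38 for all genes. In set 1 alone the periportal median was -0.17 against 0.39 for all genes, with 12 of 19 below 0. Pigr (-2.30), Cyp2f2 (-2.39) and Alb (-0.90) were called lower with Fbp1, and Tat, Tdo2 and Hsd17b13 higher. The summed level of the pericentral list was between 1932 and 5170 TPM in set 2 A3B livers and 8426 and 9789 TPM in controls, and between 2697 and 4847 TPM against 5232 and 6691 TPM in set 1. The periportal sum was between 30097 and 70678 TPM against 63714 and 120845 TPM in set 2 and between 3132 and 15358 TPM against 8180 and 9483 TPM in set 1, with overlap in both. That list includes Alb, at 54669 and 107806 TPM in the set 2 controls and between 19353 and 44124 TPM in the A3B livers. The set 2 control sums were therefore mostly Alb, and the set 2 sum is not a level of the other periportal genes.

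**Figure D4:**
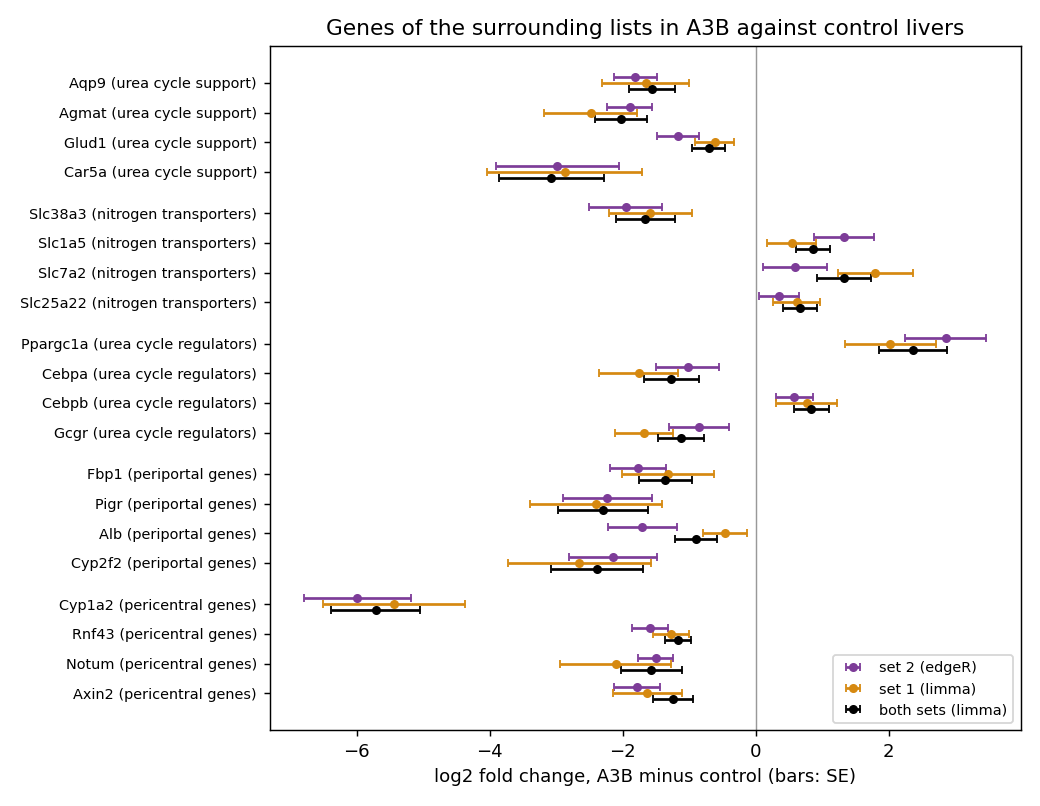
Log2 fold change of A3B minus control livers with bars of 1 SE for up to 4 genes per list, those with the smallest p in set 2 among genes called in set 2 or over both sets. Colours mark set 2, set 1 and both sets. All 4 pericentral and all 4 periportal genes shown lie below 0, although 11 of the 20 periportal genes tested in set 2 lay above 0, Ppargc1a lies at 2.85 in set 2, and Slc38a3 and Car5a lie below 0 in each fit.

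Markers of other liver cells were read in the same libraries. Macrophage markers summed to between 48.4 and 1817 TPM in set 2 A3B livers and 552 and 625 TPM in controls, and 0 of 12 were called in set 2 by edgeR, with 0 at an unadjusted p under 0.05. In set 1, 10 of the 12 lay below 0, with a median of -0.80, but Marco was called higher (1.58, adjusted p = 0.0385, limma). Endothelial markers summed to between 21.7 and 198 TPM against 143 and 182 TPM, stellate and fibroblast markers to between 27.3 and 224 TPM against 78.7 and 143 TPM, and cholangiocyte markers to between 6.48 and 43.8 TPM against 18.9 and 47.9 TPM, with 0 called in set 2 and 2 at an unadjusted p under 0.05 in each list. In the limma fit over both sets the endothelial gene Lyve1 was called higher (2.54, adjusted p = 0.013), whereas Clec4g (-1.61) of that list and Reln (-1.23) and Col3a1 (-1.61) of the stellate and fibroblast list were called lower, and 0 of 12 macrophage and 0 of 3 cholangiocyte markers were called. Lymphocyte and neutrophil markers were higher in sum, between 10.2 and 103 TPM against 5.57 and 9.07 TPM in set 2 and between 47.3 and 117 TPM against 14.6 and 31.8 TPM in set 1, without overlap, although 0 of 10 were called in set 2, with 3 at an unadjusted p under 0.05. Over both sets 2 of the 3 tested were called higher by limma, S100a9 (2.17, adjusted p = 0.0208) and S100a8 (2.08, adjusted p = 0.0313). Erythroid markers were lower in sum in set 2, between 124 and 802 TPM against 1326 and 4350 TPM, and 1 of 5, Hbb-bt, was called lower. No marker of these lists was at 0 in all set 2 livers of a group, and 4 of 5 erythroid markers were listed at 0 in every set 1 liver. Pancreatic acinar genes summed to between 6.76 and 547 TPM in set 2 A3B livers and 79.4 and 119 TPM in controls, and 1 of 8, Cela1, was called lower. Cela1 alone was 64.0 and 78.0 TPM in these controls, most of their sum, and between 4.88 and 19.9 TPM in the A3B livers. Its fall is therefore not read as a change of pancreatic RNA. The part of other cells in the members' values was not tested.

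The genes whose course over the 8 set 2 livers was most like that of a member were found by the mean absolute difference of centred log2(TPM + 1) among the 6855 genes that averaged 10 TPM or more. For Glul these were F7 (0.21), Serping1 (0.22) and Cyp2d10 (0.24), and the same measure over the 6 set 1 livers was 0.23, 0.13 and 0.24. For Otc they were Dpys (0.12), C1rl (0.14) and Fggy (0.18), with 0.48, 0.30 and 0.56 in set 1. For Asl they were Mat1a, Got1 and Itih3, and for Slc25a15 Nmral1, Rars2 and Apol9a. Cps1 was followed most closely by Qsox1 (0.11), but with 1.0 in set 1 this likeness did not carry over. Nags was nearest to R3hcc1, Sod2 and Atp5a1 (0.10 to 0.11), Gls2 to Gckr (0.17, and 0.14 in set 1) and Ass1 to Etnppl (0.20). No member was among the 3 nearest genes of another member.

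Outside the liver the members were mostly low, Glul excepted. In the pancreas of set 2, Glul was 28.8 and 25.3 TPM in controls 45 and 168 and 873, 558, 261, 1116, 646 and 217 TPM in A3B mice 44, 53, 49, 125, 137 and 153. In the lungs of set 1 it was 434, 276 and 252 TPM in controls 87, 88 and 91 and 645, 764 and 556 TPM in A3B mice 69, 70 and 74. Glul was thus higher in every A3B pancreas and every A3B lung than in the controls, and none of these differences was tested. In the pancreas 6 of the 8 members lay above both controls in every A3B library on TPM, as did 82% of genes with a mean of 1 TPM or more, a share close to that of the members. On TMM-scaled CPM, where 30% of genes lay so, this held for Glul and Ass1 only, with a lowest A3B value of Glul of 336 and a highest control value of 307. On that scale the means of Asl (25.1 against 29.9) and Slc25a15 (16.2 against 18.8) were below those of the controls. Gls2 lay below both controls in all 6 A3B pancreases, as did 19.4% of genes, between 15.8 and 56.2 against 92.1 and 135 CPM, although its mean was 1.33-fold higher on TPM. In the lung 23.3% of genes lay above the controls in every A3B library, and Glul was the only member among them. The labels give 10 days of doxycycline for the pancreases and A3B lungs and 15 days for the control lungs, of which 87 is labelled CAGs and 88 and 91 A3B, so in the lung treatment time and A3B cannot be told apart. The genotype labels of pancreases 44, 137, 45 and 168 go against their titles, which were used here. Alb varied between these libraries, from 10.4 to 634 TPM in A3B pancreases and at 32.7 and 1.19 TPM in controls 45 and 168. Alb was 19.1 TPM in pancreas 125, the highest for Glul, and 634 TPM in pancreas 44, the next highest. The part of liver RNA in the pancreas values was not tested.

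**Figure D5:**
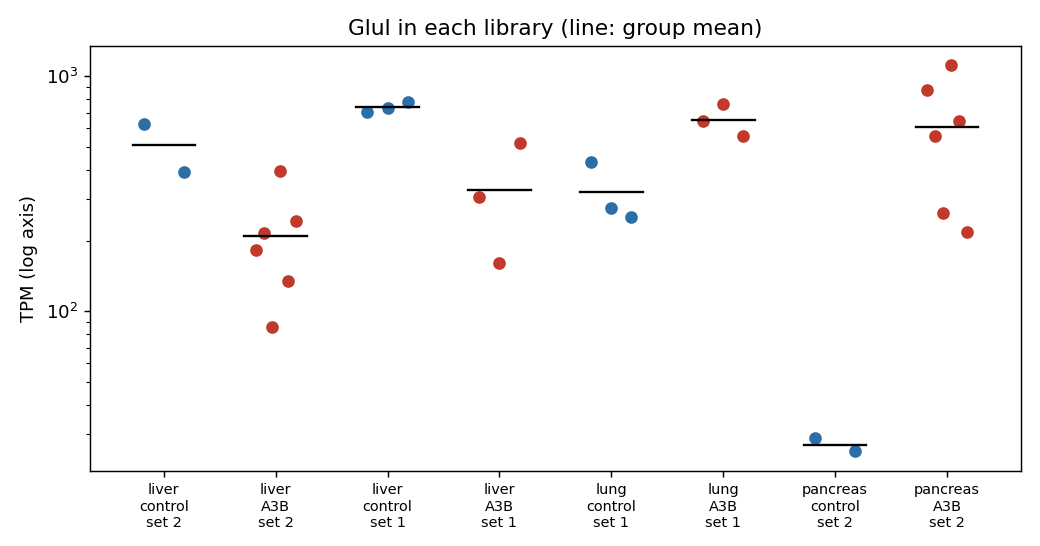
Glul TPM (log axis) in each library of liver, lung and pancreas. Points are libraries, blue for controls and red for A3B, and black lines are group means. Glul lies at 28.8 and 25.3 TPM in the control pancreases and between 217 and 1116 TPM in the A3B pancreases, while in the liver the A3B livers lie lower.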

How the data were processed

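RNA-seq of 28 mouse samples was analysed from the deposited values. For set 2 the authors ran kallisto on mm10 transcripts and the deposited values are, for each transcript, an estimated count and TPM. For set 1 they deposited TPM per gene, computed from alignments that, per the file headers, were sorted and freed of duplicates, a step that can lower the values of abundant genes. TruSeq stranded libraries were used.

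Here, 116728 of 119414 transcripts were matched to genes with GENCODE M21, and the other 2686 took from 0.692% to 1.46% of a liver's estimated counts. Sums were rounded and passed through filterByExpr and TMM scaling, and edgeR 4.0.16 gave the robust quasi-likelihood test. Set 1 was tested as log2(TPM + 1) with limma 3.58.1 (trend, robust) where genes averaged 1 TPM or more, after 4 rows with repeated names were left out. Both sets were fitted in limma with the set as a term, and its interaction with the group gave the difference between sets. P-values were adjusted by Benjamini-Hochberg over all genes, with a threshold of 0.05. DESeq2 1.42.0 was an alternative.

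The 8 members are all named; 1 further gene that the rule takes in and 1 listed gene are not reported here, and counts leave them out. From other lists at most the 4 called genes with the smallest p in set 2 were chosen to carry values. Further called genes were added after their values were seen, most named only, but Znrf3, Tcf7l2, Psmd4 and Marco with values. The members and lists were chosen with earlier results of these data known. The 3 nearest genes of a member and the transcripts with at least 5% of its TPM were found, and only some of them are named. Fits were tested on simulated data. A3B and control samples are different animals, and p-values measure the spread between them. R 4.3.3 and Python 3.11.15 were used. The authors' own comparisons were not used.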

Additional observations from a re-analysis of the deposited data

Results flagged for a closer look

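Liver 48 of the A3B group lay far from the other 5 A3B livers in several transcript measures. Its retained-intron transcripts held 4.98% of TPM. For Gls2 the share of Gls2-201 was 2.24% and that of Gls2-207 86.9%. For Asl the shares were 70.0% for Asl-201, 4.98% for Asl-202 and 5.42% for Asl-206, and for Ass1 83.2% for Ass1-201 and 13.6% for Ass1-203. In other A3B livers, Nags-202 held 11.2% of Nags TPM in liver 125, Gls2-205 held 8.50% of Gls2 TPM in liver 125, and Gls2-202 held 9.59% in liver 137, each the highest of the group. By chance about 1 in 20 such groups would show a sample this far out, and the shares of a gene's transcripts are not independent of each other.

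In samples outside the liver comparisons, Glul and Ass1 were above the controls in every A3B pancreas on TMM-scaled CPM, with lowest A3B values of 336 for Glul and 60.7 for Ass1 against highest control values of 307 and 38.0, as for 30% of genes with a mean CPM of 1 or more. Glul was above the controls in every A3B lung, with a lowest A3B value of 556 TPM against a highest control value of 434 TPM, as for 23.3% of genes with a mean of 1 TPM or more. Scaling moved the Glul difference in the pancreas from 22.6-fold on mean TPM to 1006 against 210 for mean CPM. Gls2 changed direction with the scale, its mean being 1.33-fold higher on TPM while on TMM-scaled CPM it lay below both controls in all 6 A3B pancreases (15.8 to 56.2 against 92.1 and 135). These differences were not tested.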

How the results depend on the processing

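No paired analysis was possible because A3B and control livers come from different mice and share no replicate numbers. Of the members' calls, that of Glul over both sets kept its direction and its side of the threshold in every alternative run. The call of Otc kept its direction but was lost in the settings given beside it.

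The count of members called in set 2 was 0 in the main fit, 2 with DESeq2 (which called 13% of all genes), 0 to 2 when each liver was left out in turn (2 without A3B liver 49, with 9.34% of genes called), and 3 without livers 48 and 49 (18.4%). In set 1 it was 0, and 0 to 2 when each liver was left out (2 without A3B liver 70, with 11.6% of genes called). Over both sets it was 2, and it became 4 with limma arrayWeights (57.7% of genes called), 4 without livers 28, 48 and 49 (48.7%, a choice that favours the rises of Asl and Slc25a15 among the 4), 1 with no filter on low values, 1 with the sets pooled with no set term, and 1 to 4 when each liver was left out (1 without control 45, 11, 91 or 92, and 4 without A3B liver 28, with 34.8% of genes called). The alternatives without livers 48 and 49, without 28, 48 and 49 and over protein-coding transcripts only were chosen after seeing the data.

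Of all genes, 636 were called in set 2, and 2346 with DESeq2, 1119 with total counts alone (878 higher and 241 lower, against 218 and 418), 98 per transcript, 1964 with all 16 set 2 samples in the fit, 3087 without livers 48 and 49, and 73 to 1596 when each liver was left out (fewest without control 168, most without A3B liver 49). In set 1, 913 were called, and 54 with no filter on low values and 1 to 1562 when each liver was left out (fewest without control 91, most without control 11). The split of calls over both sets was 3107 higher and 855 lower on the TPM scale, and it depended on the setting. With TMM-scaled counts for set 2 it was 2200 higher and 1243 lower. With quantile normalization within each set it was 1607 and 1512, so the excess of rises was nearly gone. With arrayWeights on TPM it was 4666 and 1194. With the sets pooled, 1526 genes were called. The difference between sets was called for 0 genes, for 95 with arrayWeights and for 7 with no filter.

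Members that were not called changed sign in some settings, and the cause was not tested. With total counts alone, Cps1, Nags and Gls2 in set 2 were 0.085, 0.13 and 0.15, and Gls2 was 0.12 with limma on log2(TPM + 1). Ass1 was -0.12 per transcript and -0.26 with Y-chromosome expression as a covariate. In set 1, Asl was -0.030 with quantile normalization and -0.32 with median of ratios scaling, and Slc25a15 -0.24 with the latter. Over both sets, Cps1 and Nags were 0.25 and 0.029 with arrayWeights, Cps1 was 0.30 with the sets pooled, and Cps1, Nags and Gls2 were 0.47, 0.025 and 0.22 without livers 28, 48 and 49. When each liver was left out, the log2 fold change ran from -0.18 to 0.19 for Ass1 and from -0.61 to 0.026 for Gls2 in set 2, from -1.23 to 0.54 for Cps1, from -0.45 to 1.22 for Asl, from -0.32 to 0.87 for Slc25a15 and from -2.18 to 0.039 for Gls2 in set 1, and from -0.61 to 0.18 for Cps1 and from -0.96 to 0.082 for Gls2 over both sets. Set 1 holds no counts, so its depth is unknown.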
